A study of Mus musculus with 23 samples.

Results

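Regions that lay inside the genomic span of a spliced alignment, or within 2000 nt on its 5′ side, were described in crosslinking and immunoprecipitation (CLIP) libraries of Upf1 and of a control antibody. A spliced alignment is a read that joins separate stretches of the genome, so its span covers at least part of the sequence removed by splicing. The span runs from the start to the end of the alignment and so includes the aligned stretches themselves. The members were chosen from the alignments themselves. Spans over 60 and up to 20000 nt from spliced alignments of all 10 libraries were merged per strand, which gave 3693 spans with a median length of 1275 nt. Unspliced alignments of all libraries were merged per strand at gaps up to 50 nt, which gave 203521 regions. A member held at least 3 alignments and had its midpoint inside a span, or up to 2000 nt on the 5′ side of a span and not within 2000 nt on the 3′ side of another. This gave 1318 members, of which 608 lay inside spans and 710 lay 5′ of them. They held 9449 of 352691 unspliced alignments outside the mitochondrial chromosome and the contig chrRibo, which is 2.68%. All coordinates are 1-based positions on mouse build mm9.

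The cells were v6.5 mouse embryonic stem cells, pluripotent cells kept on feeder fibroblasts, which were removed by plating, and RNA was crosslinked to protein with 400 mJ/cm2 of 254 nm light. A rabbit antibody against Upf1 was used for 5 libraries and rabbit IgG, the control, for the other 5. For each antibody there were 3 libraries of untreated cells, named A1, A2 and I, and 2 of cells given 100 µg/ml cycloheximide for 2 hours, named A1 and A2. The cells of these groups carried no genetic change that the labels name, and the labels do not say whether libraries came from separate cultures, so the tests compare treatments only against a library-to-library spread that may be technical. Markers of the cells could not be checked, because no annotation of mm9 was used here and no region was assigned to a gene, exon or intron.

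Upf1 is an RNA helicase required for nonsense-mediated decay, the pathway that removes mRNAs on which translation ends early. It binds RNA widely and translating ribosomes displace it, so it is found mainly on 3′ untranslated sequence, and cycloheximide, which stops ribosomes during elongation, holds them on coding sequence. Introns and 5′ exons lie upstream of the last exon, where most 3′ untranslated sequence is. A position inside a span or 5′ of it is for that reason often intronic, coding or 5′ sequence, and one 3′ of a span may be coding or 3′ untranslated, but a span fixes none of these by itself.

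Libraries differed in depth, read length and independence. Unspliced alignments outside the mitochondrial chromosome and chrRibo ranged from 6650 to 95296 per library. The 225581 deposited alignments of IgG untreated A1 gave 10299 distinct ones, all chromosomes included, and the 146897 of IgG untreated I gave 47670. IgG untreated A1 had alignments in 32 members, and the other libraries in 265 to 807. By the most frequent length of unspliced alignments, reads were 34 nt long in 3 untreated libraries (Upf1 A1, Upf1 I and IgG I) and 38 nt in the other 7. A molecule, meaning an alignment with the 2 random letters of its adapter, could occur in more than 1 library. In members, 84.5% of the molecules of IgG untreated A2, 85.8% of IgG cycloheximide A1 and 88.7% of IgG cycloheximide A2 were also present in another library. The 2 Upf1 cycloheximide libraries alone held 75.3% of the member molecules of IgG cycloheximide A1 and 68.1% of those of IgG cycloheximide A2. In Upf1 untreated A1 and I and in IgG untreated A1, 2.77%, 7.34% and 3.18% of member molecules were shared with any library. The share was 11.2% in IgG untreated I, 47.2% in Upf1 untreated A2, and 46.0% and 51.0% in Upf1 cycloheximide A1 and A2. Of the member molecules of Upf1 cycloheximide A1, 22.6% were also in A2, and of those of A2, 19.7% were in A1. The IgG cycloheximide libraries are therefore not independent of the Upf1 cycloheximide libraries. The 2 Upf1 cycloheximide libraries are not fully independent of each other either.

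Most members were small. The median member held 4 alignments over 43 nt and was present in 3 libraries. Of the 1318, 629 held exactly 3 alignments and 261 held all of them at 1 position. The threshold lies in the densest part of the distribution: 289 inside members and 340 members 5′ of spans held exactly 3 alignments, and 556 and 557 regions in the same positions held 2 and were left out. The outer limit cut a thinner part, with 31 members in its last 100 nt and 15 regions of at least 3 alignments in the next 100 nt beyond it. Regions just 3′ of spans, within the same 2000 nt, numbered 2007, with a median of 5 alignments over 87 nt. Of these, 29.9% held exactly 3 alignments, against 47.7% of members, and 8.22% had a single position, against 19.8%. At least 3 alignments with a molecule of 1 library alone were found in 44.8% of members and in 72.5% of the regions just 3′ of spans.

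Most members had alignments of both antibodies, as did most other regions, and members were spread over many spans. Both antibodies had alignments in 1129 members (85.7%), Upf1 alone in 179 (13.6%) and IgG alone in 10 (0.759%). For regions just 3′ of spans these shares were 81.2%, 18.2% and 0.598%. For regions elsewhere with at least 3 alignments they were 77.7%, 20.9% and 1.43%. Cycloheximide libraries alone had alignments in 370 members (28.1%) and untreated libraries alone in 228 (17.3%), while for regions just 3′ of spans these shares were 14.6% and 34.2%. Members lay at 866 of the 3693 spans: 615 spans had 1 member, 94 had members both inside and 5′, and the most for a span was 11. The spans themselves rested on few reads, since 2369 of them came from 1 spliced alignment. Cycloheximide libraries gave 58.7% of the 6572 spliced alignments and 24.8% of the unspliced ones, so the rule drew spans more often where cycloheximide libraries had reads. Spans drawn from the untreated libraries alone numbered 2208 and gave 831 members, of which 787 were among the 1318. Of the others, 38 lay 3′ of an untreated span and 493 lay near none.

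The share of a library's alignments that fell inside spans was higher in both Upf1 cycloheximide libraries than in every untreated Upf1 library. It was 0.975% in Upf1 untreated A1, 1.598% in A2 and 1.19% in I, against 2.32% in Upf1 cycloheximide A1 and 2.34% in A2. The groups did not overlap, and the Wilson 95% interval of the highest untreated library, 1.43 to 1.78%, ended below that of the lowest cycloheximide library, which began at 2.155%. In IgG the share was 0.552% in untreated A1, 3.57% in A2 and 1.37% in I, and 3.86% in cycloheximide A1 and 3.49% in A2. IgG untreated A2 lay within the cycloheximide range, so the IgG groups overlapped. Of the member molecules of this untreated library, 57.8% were also in IgG cycloheximide A2 and 45.7% in Upf1 cycloheximide A2, so its values are not independent of the treated libraries. Intervals here and below cover counting error only.

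The share 5′ of spans differed between treatments in the same direction. It was 0.573% in Upf1 untreated A1, 1.00% in A2 and 0.454% in I, and 2.15% in Upf1 cycloheximide A1 and 2.14% in A2. In IgG it was 0.479% in untreated A1, 2.47% in A2 and 0.632% in I, and 3.92% in cycloheximide A1 and 3.19% in A2. Within each antibody every cycloheximide library lay above every untreated library, with IgG untreated A2 the nearest to the cycloheximide libraries. In IgG the share just 3′ of spans separated too. It was 1.43% (A1), 7.35% (A2) and 5.72% (I) untreated, and 8.81% (A1) and 7.875% (A2) with cycloheximide. In Upf1 the 3′ share overlapped, with 7.12% (A1), 4.965% (A2) and 4.27% (I) untreated, and 5.13% (A1) and 4.63% (A2) with cycloheximide. The separation in IgG was thus not particular to members.

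**Figure D1:**
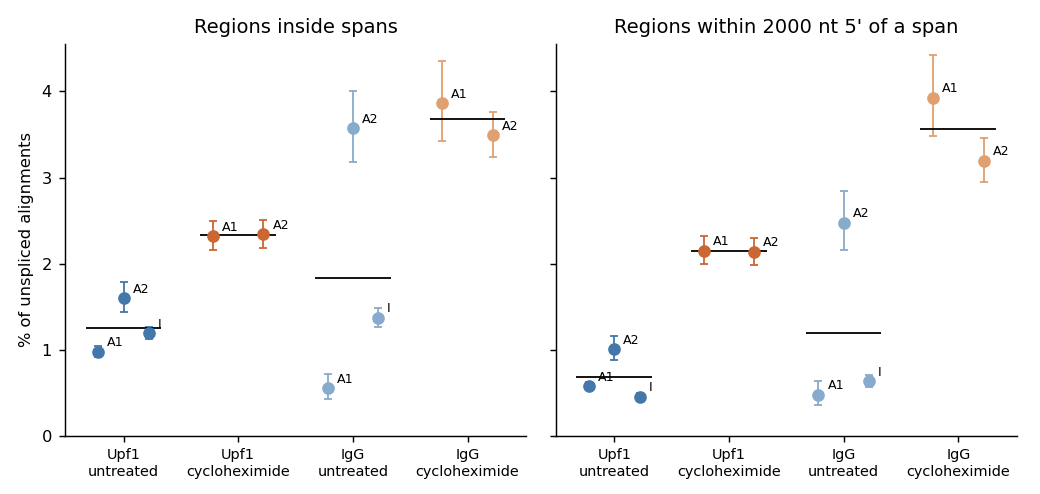
Percent of each library's unspliced alignments (y axis) that fell in regions inside spans (left) or up to 2000 nt 5′ of a span (right), by group. Points are libraries with Wilson 95% intervals and black lines are group means. Both Upf1 cycloheximide libraries lie above the untreated Upf1 libraries in each panel, and IgG untreated A2 lies apart from the other untreated IgG libraries.

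Over both antibodies, weighted equally, cycloheximide libraries exceeded untreated libraries by 1.46 percentage points inside spans and by 1.92 points 5′ of spans. Exact two-sided permutation of the treatment labels within each antibody gave p = 0.05 and p = 0.02, where 0.01 is the smallest this design can give. After Benjamini-Hochberg adjustment over 6 share comparisons the values were 0.15 and 0.12, so neither passed 0.05. These tests use alignments of the same libraries that drew the spans, most of them from cycloheximide reads, so the values are a description and not independent of how the members were chosen. Within Upf1 alone the differences were 1.08 and 1.47 points, each with an exact permutation p = 0.1, which is the smallest that 2 against 3 libraries can give. Within IgG they were 1.85 points (exact permutation p = 0.3) and 2.36 points (exact permutation p = 0.2). Among the 7 libraries with 38 nt reads the differences were 1.175 points (exact permutation p = 0.111) and 1.61 points (exact permutation p = 0.0556, the smallest possible there). Both differences were smaller with spans of the untreated libraries alone, 0.681 points inside (exact permutation p = 0.1) and 1.24 points 5′ (exact permutation p = 0.02). Among members with at least 10 alignments they were 0.5465 points inside (exact permutation p = 0.06) and 0.406 points 5′ (exact permutation p = 0.01), and within Upf1 0.348 and 0.313 points, so much of both differences lay in the smaller members. With only molecules of 1 library they were 1.25 points inside (exact permutation p = 0.08) and 1.28 points 5′ (exact permutation p = 0.01).

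The antibodies themselves were not told apart by these shares. Upf1 libraries averaged 1.685% ± 0.630 (SD, n = 5) inside spans and IgG libraries 2.57% ± 1.50 (SD, n = 5), a difference of -0.886 points with an exact permutation p = 0.238. For the share 5′ of spans the values were 1.26% ± 0.829 (SD, n = 5) and 2.14% ± 1.54 (SD, n = 5), a difference of -0.877 points with an exact permutation p = 0.286. The ranges of the antibodies overlapped for both measures.

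Members were spread over the whole 2000 nt 5′ of spans, with a peak at the edge. Their median distance from the edge was 534 nt: 217 of the 710 lay within 100 nt and 237 between 1000 and 2000 nt. In 200 nt steps of distance around the 5′ edge, without the most heavily covered span, the step just 5′ of the edge held the most alignments in all 4 groups. Its mean per 100000 alignments was 223 in untreated Upf1, 879 in cycloheximide-treated Upf1, 272 in untreated IgG and 1427 in cycloheximide-treated IgG. The next step inward, the first 200 nt of the span, held 125, 297, 137 and 464. The step from 200 to 400 nt outside the edge held 50.2, 102, 124 and 161. A spliced alignment sets the edge where its own 5′ part begins, not at the splice site. The first nucleotides inside a span therefore belong to aligned sequence. An edge lies where a library had a read, so a peak there is in part what the rule selects.

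**Figure D2:**
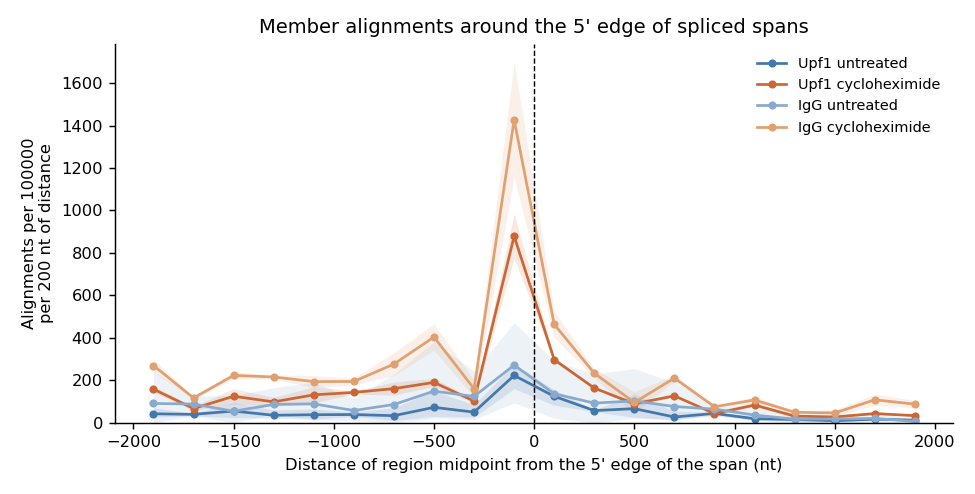
Alignments of members per 100000 unspliced alignments (y axis) by the distance of the member's midpoint from the 5′ edge of its span (x axis, nt; negative is 5′ of the span), in steps of 200 nt, without the span that held the most alignments. Lines are group means and shading is the range over libraries. All 4 groups are highest in the step just 5′ of the edge, with means of 879 and 1427 in the cycloheximide groups and 223 and 272 in the untreated groups.

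The members within 100 nt of an edge were compared library by library. Per 100000 alignments they held 222 in Upf1 untreated A1, 271 in A2 and 193 in I, against 937 and 715 in Upf1 cycloheximide A1 and A2. In IgG they held 104 in untreated A1, 561 in A2 and 297 in I, against 1474 and 1090 in cycloheximide A1 and A2. Neither antibody's groups overlapped. With spans of the untreated libraries alone, 149 members lay within 100 nt, and they held 198, 241 and 180 in the untreated Upf1 libraries and 616 and 459 in the cycloheximide ones. Counting only molecules found in 1 library, per 100000 such alignments, the 217 members held 221, 206 and 193 in the untreated Upf1 libraries and 725 and 519 in the cycloheximide ones. In IgG that count gave 105, 371.5 and 299.7 untreated and 1374 and 934 with cycloheximide. The point values did not overlap in either antibody. Most alignments drop out of this count in some IgG libraries, because their molecules were all present elsewhere. This removed 79.4% of all alignments of the untreated library A2. With cycloheximide it removed 81.4% (A1) and 85.5% (A2). Whether the IgG groups differ beyond counting error was not tested for this count.

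Within the part of the span itself, alignments were spread along its length. Leaving out the largest member, 182 inside members had their midpoint in the first 500 nt of the span, 150 between 500 and 2000 nt, 144 between 2000 and 5000 nt and 131 beyond. The first 500 nt held 31.6% of inside alignments in untreated Upf1 and 31.6% in cycloheximide-treated Upf1 on average, with overlapping ranges. The part between 500 and 2000 nt held 20.9 to 23.6% in untreated Upf1 libraries and 25.2 to 25.8% in cycloheximide ones, which did not overlap. In IgG that part held 25.43 to 27.27% untreated and 26.88 to 27.35% with cycloheximide, which overlapped. Beyond 2000 nt the Upf1 ranges overlapped as well. These differences were not tested. Of the alignments of all members, the share 5′ of spans was 27.6 to 38.6% in untreated Upf1 libraries and 47.8 to 48.1% in cycloheximide ones. Over both antibodies that share was 11.5 points higher with cycloheximide (exact permutation p = 0.03), and 5.05 points higher without the largest member (exact permutation p = 0.25). Without that member the share was 45.7 to 49.0% in untreated Upf1 libraries and 56.0 to 57.2% in cycloheximide ones, which did not overlap, and 67.6% in IgG untreated A1, which had 53 inside and 46 5′ alignments in members.

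Alignment length differed between treatments, in members as elsewhere. Alignments shorter than 30 nt made up 44.6 and 46.1% of member alignments in the Upf1 cycloheximide libraries and 47.6 and 52.5% in the IgG ones. In untreated libraries they made up 15.5% (A1), 23.2% (A2) and 11.1% (I) for Upf1, and 4.04% (A1), 39.2% (A2) and 9.78% (I) for IgG. IgG untreated A2, the untreated library with the highest shares in members, also had the most short alignments among the untreated libraries. Over all unspliced alignments the short share was 48.65 to 53.1% with cycloheximide and 10.1 to 39.6% without. Among alignments of at least 30 nt alone, the cycloheximide difference was 1.68 points inside (exact permutation p = 0.03) and 1.96 points 5′ (exact permutation p = 0.02), with adjusted p-values of 0.09 each, which did not pass. The part of alignment length in the differences was not tested further.

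Set against regions just 3′ of spans in the same library, members had a short share 1.52 points lower on average, lower in 8 of 10 libraries, with an exact two-sided sign-flip permutation p = 0.0996 and an adjusted p of 0.199 over 4 such comparisons. The test did not pass with distinct alignments, passed with every line counted (-2.47 points, exact permutation p = 0.00391), and passed without IgG untreated A2 (-2.00 points, exact permutation p = 0.0234). The share of alignments whose molecules were all present in another library was 2.07 points higher in members than in regions just 3′ of spans, higher in 8 of 10 libraries (exact permutation p = 0.00977, adjusted p = 0.0391). A shared molecule counts in every library that holds it, so the 10 differences are not independent and these p-values are a description. Sharing also helps a region to reach the minimum of alignments. Exactly that minimum was held by 47.7% of members and 29.9% of regions just 3′ of spans. Inside members and members 5′ of spans did not pass on either measure (short share 0.271 points apart, exact permutation p = 0.863; shared molecules 0.107 points lower inside, the difference being -0.107 with an exact permutation p = 0.932).

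**Figure D3:**
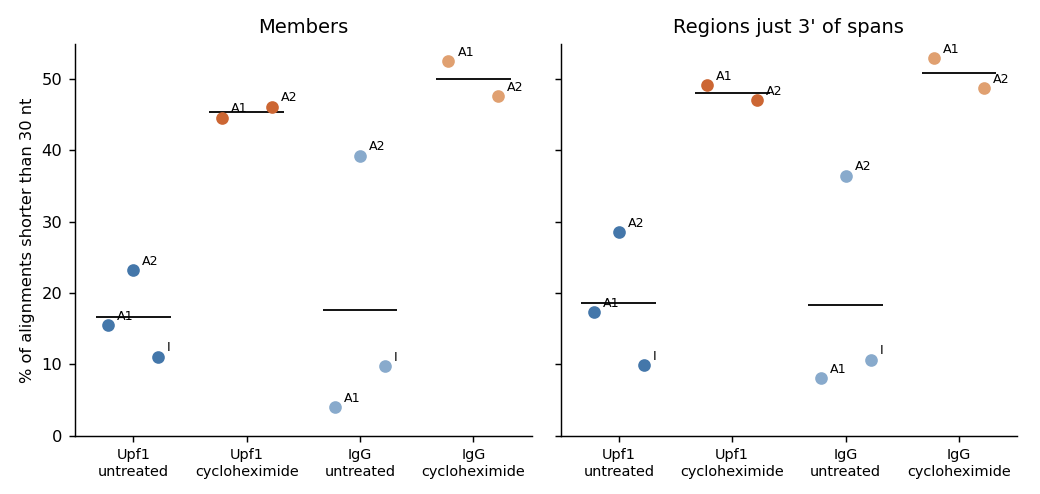
Percent of alignments shorter than 30 nt (y axis) in members (left) and in regions just 3′ of spans (right), by group. Points are libraries and black lines are group means. The 4 cycloheximide libraries lie between 44.6 and 52.5% in members, above the untreated libraries, of which IgG untreated A2 is the highest at 39.2%.

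A single member held a large part of the inside alignments. The region at chr19:5796009-5801994 (minus strand) was 5986 nt wide, filled nearly all of a span of 6243 nt that rested on 2 spliced alignments, and held 2155 alignments, 38.5% of those inside spans. It held 333, 110 and 568 alignments in Upf1 untreated A1, A2 and I, and 212 and 213 in Upf1 cycloheximide A1 and A2. In IgG it held 31, 98 and 332 in the untreated libraries and 71 and 187 with cycloheximide. Over each group this was 499 per 100000 in untreated Upf1, 682 in cycloheximide-treated Upf1, 733 in untreated IgG and 1028 in cycloheximide-treated IgG. Its limma-voom log2 change with cycloheximide was 0.61 ± 1.04 (SE) in Upf1 and 0.43 ± 1.11 (SE) in IgG, and neither passed. The region just 5′ of that span, positions 5802088 to 5802635, held 231 alignments, the most of any member 5′ of a span, and was present in all 10 libraries. Its log2 change was 1.13 ± 1.29 (SE) in Upf1 and -0.21 ± 1.35 (SE) in IgG.

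The other heavily covered inside members were present in most libraries and in both treatments. The region chr15:80087062-80087472 (plus strand) held 75 alignments, and chr1:180258507-180259149 (minus strand) held 73. The region chr11:87863197-87863632 (plus strand) held 63 and chr19:8799831-8800145 (plus strand) held 49. The adjusted p-values of these 4 members for cycloheximide in Upf1 were between 0.699 and 0.989 (limma-voom). The region chr2:26747106-26747716 (minus strand) held 57 alignments, 45 of them in untreated Upf1 and 2 in cycloheximide-treated Upf1. Its level was 22.2 per 100000 in untreated Upf1 and 3.21 with cycloheximide, a ratio of 0.144 with an exact 95% counting interval from 0.0170 to 0.553. The limma-voom log2 change was -2.35 ± 1.14 (SE), with an adjusted p of 0.291, which did not pass.

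Among members 5′ of spans with many alignments, a pair on chromosome 1 stood next to the same span, positions 88252756 to 88253161 on the minus strand. The region at positions 88253128 to 88253289 held 10, 3 and 4 alignments in Upf1 untreated A1, A2 and I and 13 and 10 with cycloheximide. In IgG it held 0, 2 and 5 untreated and 5 and 10 with cycloheximide. The region at positions 88253535 to 88253839 held 8, 3 and 7 in untreated Upf1 and 22 and 24 with cycloheximide, and 0, 6 and 2 in untreated IgG and 12 and 24 with cycloheximide. The second of these was 8.30 times higher per 100000 in cycloheximide-treated Upf1 than in untreated Upf1 (exact 95% counting interval 4.72 to 15.2), but it did not pass in Upf1 (adjusted p = 0.246, limma-voom) or in IgG (adjusted p = 0.458). Over both antibodies it rose by 3.08 ± 0.88 (SE) on the log2 scale with an adjusted p of 0.0144 (limma-voom), in libraries that share molecules, while the first had a log2 change of 2.17 ± 0.89 (SE) and an adjusted p of 0.143. The whole span with its 4 members held 187 alignments.

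The other 3 of the most covered members 5′ of spans showed no change that passed the test. The region chr9:108241663-108241892 (plus strand) held 44 alignments, with 13.3 per 100000 in untreated Upf1 and 8.03 with cycloheximide. The region chr12:110786257-110787131 (plus strand) held 37, with 12.3 and 6.42 per 100000. The region chr10:80644963-80645110 (plus strand) held 35, with 13.8 per 100000 in untreated Upf1, where 24 of the alignments came from library A1, and 1.61 with cycloheximide. Their limma-voom log2 changes in Upf1 were -0.12 ± 1.25, 0.40 ± 1.21 and -1.54 ± 1.02 (SE). For the chromosome 12 member the fitted change and the ratio of pooled levels (0.520, exact 95% counting interval 0.132 to 1.50) differ in sign.

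Spans with several members were found besides these. The span at chr7:118219136-118222831 (minus strand) rested on 70 spliced alignments and had 10 inside members with 158 alignments. Per 100000 they held 63.0, 25.1 and 22.9 in Upf1 untreated A1, A2 and I and 60.3 and 40.1 with cycloheximide, and the groups overlapped. In IgG they held 20.8, 63.8 and 41.8 untreated and 90.2 and 54.2 with cycloheximide. The span at chr15:80086939-80087685 (plus strand) had 2 members with 109 alignments.

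Regions were then tested one by one for a change with cycloheximide, over all 2357 regions of the series that held at least 10 alignments and were present in at least 3 libraries, with limma-voom. Of the 1318 members, 109 passed this filter, 59 inside and 50 5′ of spans. Since a small member could pass the filter only through the libraries in which it is high, the counts below describe the tested members and not all members. The same holds for the p-values of single members with 0 or few alignments in the untreated libraries, which are given as a description. In the Upf1 libraries 14 of the 109 rose with cycloheximide and 0 fell at an adjusted p under 0.05, where 2.38% of all tested regions rose and 0.339% fell. The 14 were 6 inside members and 8 members 5′ of spans, at 11 spans. At an unadjusted p under 0.05, 35 members were higher and 4 lower, where 191 and 196 of all 2357 regions were. The median log2 change of the 109 was 1.13, against -0.65 over all tested regions, -0.74 over the 437 tested regions just 3′ of spans and -0.67 over the 1811 elsewhere. Of the 437, 19 rose and 3 fell, and of the 1811, 23 rose and 5 fell. No test of the difference between these sets was made, and since the spans were drawn in part from cycloheximide libraries the members' count is read as a description.

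**Figure D4:**
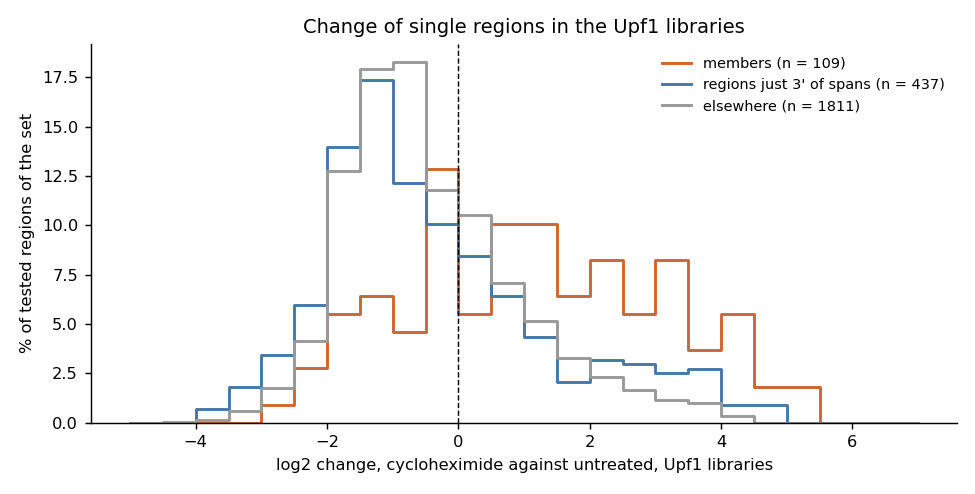
Distribution of the limma-voom log2 change with cycloheximide in the Upf1 libraries (x axis) over tested regions, as the percent of each set (y axis), for 109 members, 437 regions just 3′ of spans and 1811 regions elsewhere. The median of members is 1.13 and the medians of the other sets are -0.74 and -0.67.

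The member with the lowest p in Upf1 lay inside a span on chromosome 17 that held 2 more members that rose. Positions 45707647 to 45707707 on the minus strand held 0 alignments in each untreated Upf1 library and 11 and 8 in Upf1 cycloheximide A1 and A2, so the groups did not overlap. The level with cycloheximide was at least 15.2-fold higher by the lower limit of the exact 95% counting interval. The log2 change was 5.24 ± 1.16 (SE) with an adjusted p of 0.0158 (limma-voom). In IgG it held 0, 1 and 1 alignments untreated and 3 and 7 with cycloheximide. Positions 45708489 to 45708559 held 1, 0 and 0 in untreated Upf1 and 10 and 11 with cycloheximide, a ratio of 68.2 (exact 95% counting interval 11.0 to 2822), and 0, 1 and 0 in untreated IgG against 3 and 7. The log2 change in Upf1 was 4.95 ± 1.18 (SE) with an adjusted p of 0.0164 (limma-voom). Both members passed the filter through the cycloheximide libraries, so their p-values are a description. Positions 45707976 to 45708128 held 1, 0 and 1 in untreated Upf1 and 6 and 8 with cycloheximide, a ratio of 22.7 (exact 95% counting interval 5.22 to 206). With spans of the untreated libraries alone, all 3 lay 3′ of a span and not inside one.

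Chromosome 1 held 3 further members that rose in Upf1 on the minus strand, at 2 neighbouring spans. Positions 155325176 to 155325314, 67.5 nt 5′ of its span by the midpoint, held 0 alignments in all 6 untreated libraries. It held 9 and 7 in the Upf1 cycloheximide libraries and 4 and 4 in the IgG ones. Its level with cycloheximide was at least 12.5-fold higher in Upf1 and at least 4.28-fold higher in IgG. Both values are lower limits of the exact counting interval. The log2 change in Upf1 was 5.01 ± 1.15 (SE) with an adjusted p of 0.0164 (limma-voom). It lay 5′ of a span of the untreated libraries too, and 12 of its 24 alignments had a molecule of 1 library alone. Positions 155326010 to 155326107, 881 nt 5′ of the same span, held 0 in the untreated libraries and 8 and 2 in the Upf1 cycloheximide libraries, with 1 and 1 in IgG. Positions 155312806 to 155312857, 5 nt inside the 5′ edge of another span, held 4 and 4 in the Upf1 cycloheximide libraries, 0 in untreated Upf1, and 1 in each of IgG untreated I and IgG cycloheximide A1. Only 2 of its 10 alignments had a molecule of 1 library alone.

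The remaining members with the lowest p in Upf1 had 0 alignments in untreated Upf1 as well. Their increases are given as the lower limit of the exact counting interval. The region chr3:102853549-102853625 (plus strand) held 4 and 8 in Upf1 cycloheximide A1 and A2, an increase of at least 9.03-fold. It held 3 in IgG untreated A2 and 1 and 3 in the IgG cycloheximide libraries. The region chr10:36718234-36718373 (plus strand) held 9 and 2 with cycloheximide, an increase of at least 8.15-fold. The region chr11:48617588-48617726 (plus strand) held 4 and 4, an increase of at least 5.55-fold. The adjusted p-values of these 3 were 0.0230, 0.0236 and 0.0236 (limma-voom). Of all 14 members that rose in Upf1, 12 had 0 alignments in untreated Upf1.

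The calls in Upf1 depended on both cycloheximide libraries, which share some of their member molecules. Without Upf1 cycloheximide A1, or without A2, 0 members passed (limma-voom), as with every line counted, with distinct molecules, without a filter and among libraries with 38 nt reads, and 0.0% of all tested regions rose under each of these. Without Upf1 untreated A1, 3 members and 0.415% of all tested regions rose. Without IgG untreated A1, 24 members rose and 1 fell, where 4.91% and 2.82% of all regions did. With only molecules of 1 library 3 of 64 tested members and 0.564% of all regions rose, with a median log2 change of 0.14 in members against -0.60 over all tested regions. With spans of the untreated libraries alone 3 of 75 rose, against 2.38% of all regions, with a median of 0.73.

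In the IgG libraries 0 of the 109 members rose and 0 fell with cycloheximide (limma-voom), against 0.0% and 0.0424% of all tested regions. At an unadjusted p under 0.05, 24 members were higher and 0 lower, where 117 and 39 of all 2357 regions were, and with the trended limma test 0 passed. The median log2 change of the members was 0.72, against -0.22 over all tested regions. All 14 members that rose in Upf1 had a positive log2 change in IgG, with a median of 2.36 against 4.11 in Upf1. This is not independent support, since most member molecules of the IgG cycloheximide libraries were also in the Upf1 cycloheximide libraries. The lowest p-values in the higher direction belonged to the members at 155325176 on chromosome 1, 45707976 on chromosome 17 and 60603683 on chromosome 11. In the lower direction they belonged to chr1:162965980-162966062 (plus strand), chr19:8800280-8800481 (plus strand) and chr7:118221569-118221688 (minus strand). Their log2 changes were -1.602, -1.71 and -1.20, the last being 0.17 with every line counted.

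Fitted over both antibodies, 27 of the 109 members rose with cycloheximide and 0 fell (limma-voom), against 5.69% and 1.06% of all tested regions. The 27 were 10 of 59 inside members and 17 of 50 members 5′ of spans, at 23 spans, and included all 14 that rose in Upf1. The median log2 change of the 109 was 0.82, against -0.45 over all tested regions. The 27 held 539 alignments, of which 48.1% had a molecule of 1 library alone, against 73.8% in the other tested members. Their median width was 98 nt and that of the other tested members 160.5 nt, with a median of 14 alignments in each. With spans of the untreated libraries alone, 10 of the 27 were still inside or 5′ of a span, 4 lay 3′ of one and 13 lay near none. Without Upf1 cycloheximide A1, 11 members rose, and without A2, 10 (limma-voom), where 2.02% and 1.95% of all tested regions did. With only molecules of 1 library 4 of 64 members rose, where 0.734% of all regions did, and among libraries with 38 nt reads 16 of 48, where 14.6% did. With every line counted 3 of 223 rose, where 0.0895% of all regions did, and without a filter 0 members and 0.0% of all regions rose.

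**Figure D5:**
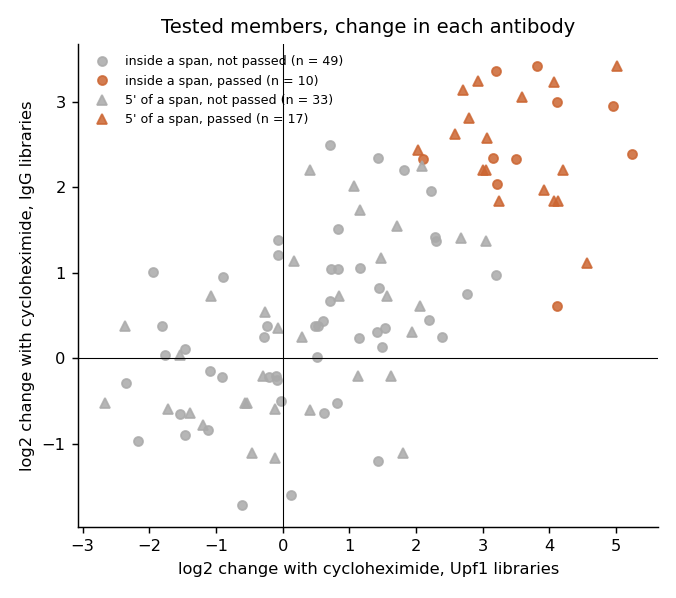
Limma-voom log2 change with cycloheximide in the Upf1 libraries (x axis) and in the IgG libraries (y axis) for the 109 tested members. Circles lie inside a span and triangles 5′ of one, and the 10 circles and 17 triangles in orange passed the test over both antibodies. The IgG and Upf1 cycloheximide libraries share molecules, so the axes are not independent.

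Summed over the 27, the libraries separated by treatment in each antibody. Per 100000 alignments they held 21.0, 40.2 and 19.5 in Upf1 untreated A1, A2 and I and 489 and 450 in the cycloheximide libraries. In IgG they held 0, 179 and 22.02 in untreated A1, A2 and I and 977 and 613 in the cycloheximide libraries. These sums follow from the choice of the 27 and carry no test. Counting only molecules of 1 library, per 100000 such alignments, they were 21.0, 19.9 and 18.7 in untreated Upf1 and 404 and 401 with cycloheximide. In IgG that count rests on 0, 2 and 9 alignments in the untreated libraries and 10 and 22 with cycloheximide.

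Among members whose alignments nearly all came from the cycloheximide libraries, and which passed the filter through them, the lowest adjusted p over both antibodies, 0.000279 (limma-voom), belonged to the member at positions 155325176 to 155325314 of chromosome 1, with a log2 change of 4.16 ± 0.78 (SE). The 3 members of the chromosome 17 span, at 45707647, 45708489 and 45707976, rose by 3.85, 3.95 and 3.61. The region chr11:60603683-60603739 (minus strand) held 0 in all untreated libraries, 5 and 3 in the Upf1 cycloheximide libraries and 3 and 4 in the IgG ones, and rose by 3.62 ± 0.77 (SE). The region chr1:133061001-133061078 (plus strand) held 1 and 6 in the Upf1 cycloheximide libraries, 3 and 3 in the IgG ones and 0 elsewhere, and rose by 3.31 ± 0.75 (SE). The members on chromosome 11 at 48617588 and on chromosome 10 at 36718234 rose by 3.51 and 3.13. No named member of these 8 had more than 2 alignments over all untreated libraries of either antibody.

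Members with lower levels under cycloheximide were fewer and none passed. The region chr18:33954563-33954949 (plus strand) held 16, 2 and 6 alignments in Upf1 untreated A1, A2 and I, 3 in IgG untreated I and 0 in all 4 cycloheximide libraries. In Upf1 its level with cycloheximide was at most 0.540 of the untreated level by the upper limit of the exact counting interval. The log2 change in Upf1 was -2.67 ± 1.02 (SE) with an adjusted p of 0.135 (limma-voom). On chromosome 2 the span at positions 26744894 to 26747536 on the minus strand held 2 such members beside the one at 26747106. Positions 26746565 to 26746900 held 24 alignments and positions 26746958 to 26747023 held 14, and all were in untreated libraries. The region chr4:116314466-116314641 (minus strand) held 10, 3 and 3 in untreated Upf1, 0 in cycloheximide-treated Upf1, 2 in IgG untreated I and 1 in IgG cycloheximide A2.

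The change with cycloheximide was not shown to differ between the antibodies for any member. The test of that difference called 0 members higher and 0 lower (limma-voom), against 0.0% of all tested regions in each direction. At an unadjusted p under 0.05, 3 members passed upward and 2 downward, where 33 and 35 of all 2357 regions did, while trended limma called 0. The median difference of the log2 changes was 0.16 in members and -0.45 over all tested regions. The lowest p-values for a larger change in Upf1 than in IgG were at 155312806 on chromosome 1 (3.495 ± 1.38, SE), 102853549 on chromosome 3 (3.45 ± 1.55, SE) and 83310880 on chromosome 11 (2.92 ± 1.25, SE). In the other direction they were at 19842601 on chromosome 7 (-2.96), 116314466 on chromosome 4 (-2.75) and chrX:70740309-70740610 (plus strand) (-2.19). All 6 had an adjusted p of 0.985.

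Between the antibodies 0 members passed in either direction (limma-voom), as did 0.0% of all tested regions. At an unadjusted p under 0.05, 1 member was higher in Upf1 and 6 were lower, where 42 and 24 of all 2357 regions were, and the trended limma test called 0. The median log2 ratio of Upf1 to IgG was 0.04 in members and 0.09 over all tested regions with TMM scaling, but -0.95 and -0.90 when scaled by library totals. The member with the lowest p, chr11:83310880-83310918 (plus strand) held 10 of its 13 alignments in IgG untreated A1 alone, and 1 in each of IgG untreated A2, Upf1 cycloheximide A2 and IgG cycloheximide A2. Its log2 ratio was -1.92 ± 0.63 (SE). Next on the IgG side were the chromosome 17 member at 45707647 (-1.38, but 0.05 among libraries with 38 nt reads) and chr11:48615786-48615950 (plus strand) (-1.46). On the Upf1 side chr7:118220342-118220580 (minus strand) held 20, 0 and 5 in untreated Upf1, 4 and 1 with cycloheximide, 4 in IgG untreated I and 0 in the other IgG libraries, with a log2 ratio of 1.47 ± 0.70 (SE). The region chr7:19842601-19843105 (minus strand) held 25 alignments in Upf1 and 1 in IgG (1.34), and chr2:84511847-84511935 (minus strand) held 14 alignments in Upf1 and 0 in IgG (1.28). Upf1 libraries were the deeper ones, with 52948 alignments on average against 17591 in IgG.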

How the data were processed

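CLIP-seq was analysed in 10 libraries, and the 10 mRNA-seq and 3 ribosome footprint samples of the series were not used here. The deposited files list alignments 1 per line without a header. The build is mm9 per the submitters' processing notes, which name TopHat 1.4.0, Bowtie 0.12.6 and Cufflinks 1.3.0 without a role. The score deposited by the authors was 255 in every line and was not used. The other deposited columns used were start and end, from which alignments were tallied. Per the labels, 2 random nucleotides in the adapter served to filter PCR copies.

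Each distinct alignment counted once per library. Members, lists and tests were chosen with earlier results of these data known. Shares were compared by exact two-sided permutation tests and single regions by limma-voom (limma 3.58.1, R 4.3.3), since the tallies are not a deposited count table. Libraries were scaled by trimmed means of log ratios (TMM, trims of 30% and 5%, against the deepest library), with Benjamini-Hochberg adjustment over 2357 regions. The merging, classes and Benjamini-Hochberg adjustment were checked on small made-up cases, and the fits on simulated counts. Where a group had 0 alignments, the bound given for the ratio is a limit of the exact counting interval. Named members were the 6 with the most alignments of each kind, the 8 with the lowest p among those that passed in a direction or the 3 lowest where none did, and the 4 spans whose members held the most alignments. The planned gene lists and cell markers were not used, because the gene tables at hand are of another build. TMM placed the median of all tested regions at -0.65 in Upf1, and library totals at -0.91, so changes are read against that median. The alternatives by alignment length, by single alignment position, by the share among members and regions just 3′ of spans, and without the largest member were chosen after seeing the data.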

Additional observations from a re-analysis of the deposited data

How the results depend on the processing

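The differences of shares kept their direction under every alternative run. None passed after adjustment, but the smallest p the design allows is 0.1 within Upf1 and, over both antibodies, 0.01 before adjustment, so this shows nothing about stability. The values fell most with at least 10 alignments per member, to 0.5465 points inside and 0.406 points 5′ of spans. Leaving out each library in turn gave 1.141 to 1.896 points inside and 1.733 to 2.236 points 5′ of spans for cycloheximide, -1.391 to -0.562 and -1.292 to -0.431 for Upf1 minus IgG, and 0.936 to 1.248 and 1.355 to 1.631 for cycloheximide within Upf1. The short share of members minus regions just 3′ of spans was -2.467 with every line and -2.144 with distinct molecules, both past the threshold, and -1.996 to -1.089 with each library left out, past it only without IgG untreated A2.

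Counts of called members moved more. For cycloheximide in Upf1 (14 higher), the count was 0 with every line, distinct molecules, no filter or 38 nt libraries, 3 with molecules of 1 library or spans of the untreated libraries, 4 of 20 with at least 30 alignments, and 0 to 24 with each library left out. Of all tested regions, 3.13% rose with at least 30 alignments and 0.0 to 4.91% with each library left out. Over both antibodies (27 higher) the count was 3 with every line, 4 with molecules of 1 library, 0 with no filter, 5 with at least 30 alignments, 11 with untreated spans, 16 with 38 nt libraries and 10 to 30 with each library left out. In IgG the count was 3 with at least 30 alignments. Members called lower numbered 1 with library totals for Upf1 against IgG and for cycloheximide in Upf1, where 0.127% and 1.82% of all tested regions were lower. With each library left out they numbered 0 to 1 in Upf1, where 0.0 to 2.82% of all tested regions fell, and 0 to 2 over both antibodies. Fewer regions were tested under the stricter minimum and in the 38 nt libraries, and otherwise the cause was not tested. Among named members, the log2 ratio of Upf1 to IgG at 45707647 on chromosome 17 turned to 0.0477 in 38 nt libraries, and the change in IgG at 118221569 on chromosome 7 turned to 0.17 with every line.

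Library names shared between groups do not pair all samples, since I occurs only in untreated groups. Deviations of same-named libraries correlated from -0.17 to 0.42 over 13 pairs (median 0.11), and others from -0.51 to 0.28. The 2 libraries of a cycloheximide group deviate in opposite directions by construction. Many values of the other pairs therefore mirror those of same-named pairs, and these ranges cannot show whether names pair libraries. With the name as a replicate block, the cycloheximide differences were 1.33 and 1.719 points. Under it 21 members rose in Upf1, where 4.45% of all tested regions did, and 36 over both antibodies. Depth limits single members, since 629 of 1318 hold 3 alignments.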
